A study of Gallus gallus with 72 samples.

Results

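The chicken basement membrane was followed through 9 of its structural genes in developing breast muscle: the collagen IV chains COL4A1, COL4A2 and COL4A5, the laminin chains LAMA2, LAMA4, LAMB1 and LAMC1, and the nidogens NID1 and NID2. They were found by gene symbol in a count table of 12046 genes; no measured value enters that rule, although the set was proposed with earlier results of these data known. Each of the 9 was found in 1 row of that table, and all 9 passed the filter on low counts in every fit. The lowest count of any of them in any library was 760.

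A basement membrane is the thin sheet of matrix that wraps each muscle fibre, each capillary and each Schwann cell. Laminins, trimers of an alpha, a beta and a gamma chain, polymerise at the cell surface, where integrins and dystroglycan hold them. Collagen IV trimers form a separate crosslinked network, and nidogens bridge the laminin network to it. In muscle, laminin with the alpha 2 chain lies around the fibres and laminin with the alpha 4 chain around vessels, and human LAMA2 mutations cause a congenital muscular dystrophy.

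RNA came from breast muscle of male broilers of 3 kinds, purebred Cornish, purebred White Plymouth Rock and the crossbred of both, at embryonic day 17 (E17) and at 1, 21 and 42 days after hatch (D1, D21 and D42). Each of the 12 groups of breed and stage held 6 libraries, with no treatment or altered gene in any group. The source name calls the material breast muscle myofibroblasts, under a cell line tag, whereas the extraction protocol starts from frozen muscle tissue, and the E17 age label gives its unit as years. The labels do not say that the 6 libraries came from separate birds, so p-values here reflect the spread of these samples alone, technical or not, and each stage cannot be told apart from whatever else differed between its collection and the others. Depth was 16673085 counts in the shallowest library, crossbred D1 library 1, and between 47478167 and 75670549 in the other 71. The libraries held transcripts of whole muscle: the summed level of 8 muscle fibre markers was 10657 to 18285 CPM at E17 and 33925 to 60875 CPM at D21, and markers of endothelium, Schwann cells, fibroblasts and red cells were present at every stage. In such bulk samples, fewer cells of a type and less RNA per cell cannot be told apart. Levels are given as CPM, counts brought to a common library size, after TMM scaling over all 72 libraries, which also evens out differences in composition. They are not corrected for transcript length, so levels are compared within a gene and not between genes.

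Some libraries stood apart for these genes. At D42 the library numbered 3 had the lowest level of its group for every member in every breed, 27 of 27 combinations, by a median of -1.15 on the log2 scale relative to its group mean. Over the same 27 combinations the other numbers had medians of -0.095 (number 1), -0.096 (2), 0.43 (4), 0.30 (5) and 0.51 (6). These rest on 3 libraries per number and on genes that vary together, so they are not 27 separate observations. Numbers 4 to 6 all lay above numbers 1 to 3 in 19 of the 27. In White Plymouth Rock the 9 genes summed to 6648 CPM in library 1, above libraries 4 (6119 CPM) and 5 (6189 CPM). The summed level of the 9 genes was 3376 CPM in Cornish, 1988 CPM in crossbred and 2521 CPM in White Plymouth Rock library 3. The other 15 D42 libraries held 4952 to 9461 CPM, so the 3 libraries lay below all of them. Cell type markers moved with this: in those 3 libraries the summed level of 10 endothelial markers was 267 to 476 CPM against 773 to 1404 in the other 15. The 10 fibroblast markers summed to 924 to 1687 CPM against 1718 to 4682 in the other 15, and the 8 muscle fibre markers to 57129.6 to 67737 CPM against 29009 to 49249 in the other 15. Endothelial levels were thus below and muscle fibre levels above those of all other D42 libraries. Leukocyte markers were also below, at 388 to 1086 CPM against 1453 to 3612. The 8 pericyte and smooth muscle markers, a list that includes the fibre protein DES, were above, at 8212 to 11119 CPM against 3760 to 8203. How much of that sum was DES was not separated. The part of these cell types in the low basement membrane levels was not tested.

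**Figure D1:**
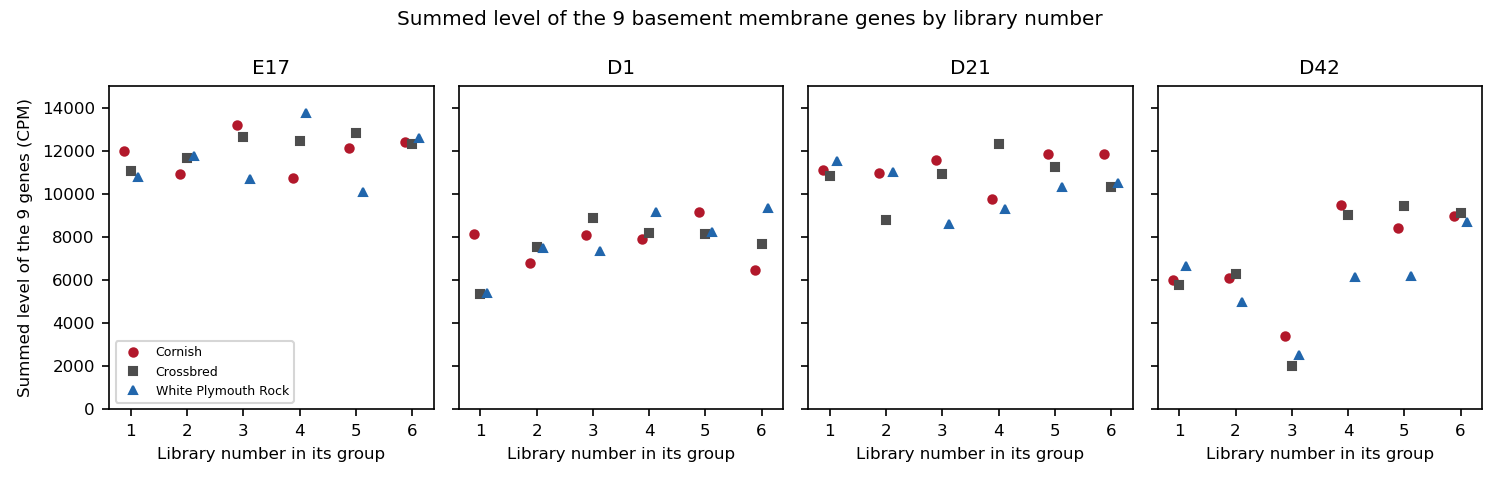
Summed level of the 9 basement membrane genes (CPM, vertical axis) in each library by its number within its group (horizontal axis), 1 panel per stage; points are single libraries and colour and shape mark the breed. At D42 the 3 libraries numbered 3 hold 1988 to 3376 CPM, below the other 15.

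At D1 the library numbered 1 was the lowest of its group in 16 of 27 combinations. In crossbred library 1, the shallowest of all 72, the members lay a median of -0.54 (log2) from the group mean, and in White Plymouth Rock library 1 a median of -0.44; Cornish library 1 was at 0.043. In White Plymouth Rock library 1 the fibroblast markers were -0.73 and the endothelial markers 0.39 from the group mean. The pericyte and smooth muscle markers were 0.99, the red cell markers -1.09, the interstitial collagens -0.78 and the other laminin chains 0.68 from it. These are values of summed levels. The pericyte and smooth muscle list includes the fibre protein DES, and how much of its sum was DES was not separated. RGS5, ACTA2 and PDGFRB of that list had means of 265, 138 and 107 CPM over all 72 libraries. The list's sums at D1 ran from 1950 to 5971 CPM. The laminin sum was largely LAMB2, at 1029 CPM in White Plymouth Rock library 1. The highest sum of the 8 chains in any D1 library was 1169 CPM. Member calls that change without these libraries are given with and without them.

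Comparing neighbouring stages asked how basement membrane transcripts changed across hatch and growth. From E17 to D1, 8 of the 9 genes fell, most steeply LAMA4 and NID2 to 0.341 and 0.350 of their E17 levels. From D1 to D21, 6 rose, led by COL4A1 (2.26-fold) and COL4A2 (1.87-fold), while COL4A5 fell to 0.220 and LAMB1 to 0.808 of the D1 level. From D21 to D42, 7 fell and none rose. Over the whole interval, COL4A5 at D42 was at 0.0925 and LAMB1 at 0.250 of the E17 level, while COL4A1, COL4A2 and NID1 did not pass the test.

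**Figure D2:**
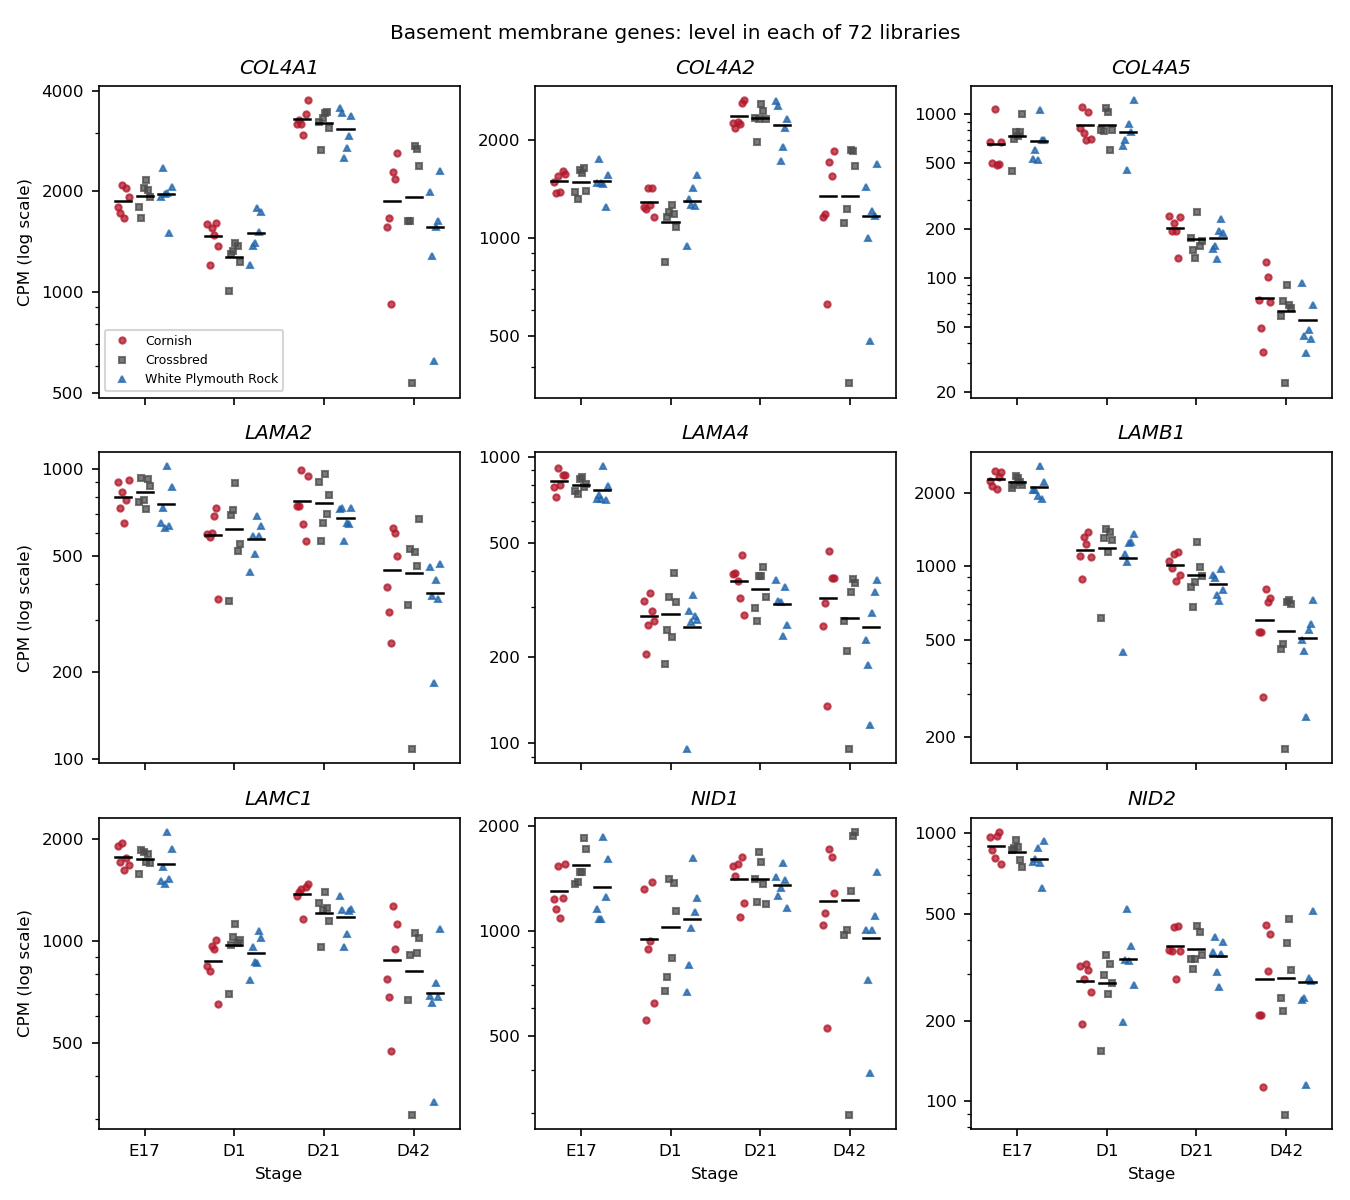
Level of each gene in each of the 72 libraries (CPM on a log axis) by stage, with colour and shape for breed and a black line at the arithmetic mean of each group of 6. COL4A1 and COL4A2 are highest at D21, COL4A5 drops after D1, and the other 6 genes have their highest stage mean at E17.

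These counts come from edgeR's quasi-likelihood test in a fit of all 72 libraries, averaged over the 3 breeds, with Benjamini-Hochberg adjustment over 11932 genes and a threshold of 0.05. Many genes changed between stages, which sets the background for the 9. From E17 to D1, 8 members were lower and 0 higher where 35.6% of all genes were lower, 37.3% higher and 73% were called in either direction; the members' median log2 fold change was -0.45 and that of all genes 0.012. From D1 to D21, 6 were higher and 2 lower, against 36.4% and 36.8% of all genes, or 73.2% called, with medians of 0.32 and -0.0085. From D21 to D42, 7 were lower and 0 higher, against 15.6% and 17.1% of all genes, or 32.6% called, with medians of -0.75 and -0.0029. Between E17 and D42, 6 were lower and 0 higher against 41.2% and 40%, or 81.2% called, with medians of -1.12 and -0.021. Without the D42 libraries numbered 3, 6 members fell from D21 to D42, and NID2 was no longer called (-0.17, adjusted p = 0.271). In that setting 3607 of 11935 genes were called at this step. Without the D1 libraries numbered 1, a setting chosen after seeing the data, 7 fell from E17 to D1. From D1 to D21, 4 rose and 2 fell in that setting. It called 8614 and 8697 of 11931 genes at these steps. Scaled by library totals alone, 2 members rose (COL4A1 and COL4A2) and 2 fell (COL4A5 and LAMB1) from D1 to D21. That scaling moved the median of all genes at this step to -0.32 and called 8953 of 11932 genes. Fitted with only the 2 stages compared, 8 members were called from E17 to D1, 9 to D21, 6 to D42 and 6 between E17 and D42. Of all genes, those fits called 8937 of 11833, 8649 of 11835, 3369 of 11734 and 9693 of 11887.

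**Figure D3:**
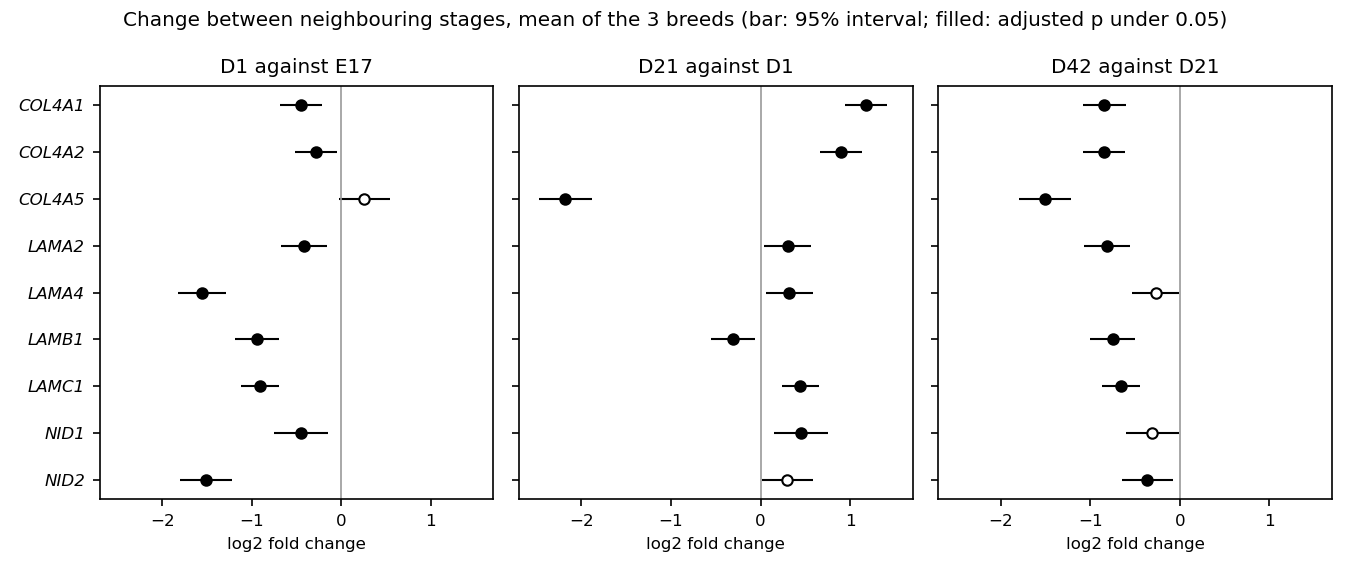
Log2 fold change of each gene between neighbouring stages (horizontal axis), the mean of the 3 breeds, with 95% intervals as bars; filled points passed the adjusted threshold of 0.05 and open points did not. Points left of 0 are lower at the later stage: 8 of 9 genes at D1, COL4A5 and LAMB1 at D21, and all 9 points, 7 of them filled, at D42.

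Within single breeds the contrasts compared groups of 6 libraries and made fewer calls. They were taken from the fit of all 72 libraries, in which each gene has a spread shared by all stages. The spread in the data was unequal: the SD within groups of log2 COL4A1 was 0.16 at E17 and 0.71 at D42. Calls within a breed therefore do not rest on the spread of the compared groups alone. The same holds for the stage calls averaged over the breeds and for the breed-by-stage test, which come from that fit. From E17 to D1, 4 members fell in Cornish (background 57.5% called, 28% lower), 6 in crossbred (53.7% and 25.5%) and 4 in White Plymouth Rock (53.5% and 25.2%). LAMA4, LAMB1, LAMC1 and NID2 were among them in each breed, and COL4A1 and NID1 were added in crossbred. From D1 to D21, 3 rose and 1 fell in Cornish (55.3% called, 27.5% higher and 27.8% lower). In that step 2 rose and 1 fell in crossbred (56.3%, 27.8% and 28.5%) and in White Plymouth Rock (53.6%, 26.3% and 27.4%). COL4A1 and COL4A2 rose and COL4A5 fell in each breed, and LAMC1 rose in Cornish. From D21 to D42, COL4A1, COL4A2, COL4A5, LAMA2, LAMB1 and LAMC1 fell in each of the 3 breeds, 6 of 9 members against 4.35% of all genes lower in Cornish, 2.52% in crossbred and 3.92% in White Plymouth Rock, or 8.95%, 6.12% and 8.26% called. Between E17 and D42, 6 fell in each breed (COL4A5, LAMA2, LAMA4, LAMB1, LAMC1 and NID2), where 67%, 67.8% and 69% of all genes were called in Cornish, crossbred and White Plymouth Rock, and 33.2%, 33.5% and 35.2% were lower. Whether the breeds differed in these steps was tested directly and is given with the breed comparisons. Each D42 group used here holds its library numbered 3, the lowest of the group for every member. Tests within single breeds were not run without those libraries, so the comparisons with D42 share this limit in all 3 breeds. Nor were they run without the D1 libraries numbered 1. In crossbred that library is the shallowest of the 72 and had the lowest COL4A1 of its group, at 1004 CPM.

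COL4A1 encodes the alpha 1 chain of collagen IV, which joins the alpha 2 chain in the commonest collagen IV trimer. Its gene spans 138807413 to 138920608 on chromosome 1 (GRCg7b). COL4A1 ran from 1499 to 2343 CPM with a median of 1946 at E17 (18 libraries). At D1, COL4A1 ran from 1004 to 1787 CPM with a median of 1386. The D1 levels were lower on the whole and overlapped those of E17; within Cornish and within crossbred all 6 D1 libraries lay below all 6 E17 libraries. COL4A1 then ran from 2511 to 3749.6 CPM with a median of 3257 at D21. COL4A1 at D42 ran from 533 to 2731 CPM with a median of 1651. All 18 D21 libraries lay above all 18 D1 libraries, and D42 overlapped D21 and was wide. Mean COL4A1 (± SD, n = 6) at E17 was 1873 ± 173 CPM in Cornish, 1937 ± 181 in crossbred and 1961 ± 272 in White Plymouth Rock. COL4A1 means at D1 were 1468 ± 154 CPM in Cornish, 1272 ± 144 in crossbred and 1502 ± 225 in White Plymouth Rock. Mean COL4A1 at D21 was 3293 ± 270.4 CPM in Cornish, 3202 ± 298 in crossbred and 3084 ± 434 in White Plymouth Rock, and at D42 1867 ± 605 CPM in Cornish, 1929 ± 839 in crossbred and 1567 ± 584 in White Plymouth Rock. The 3 D21 groups had the highest means of the 12 and did not overlap the next, White Plymouth Rock E17; from there down to crossbred D1, the lowest, each group overlapped the next. COL4A1 fell from E17 to D1 (log2 fold change -0.45 ± 0.12, adjusted p = 0.000607), rose to D21 (1.18 ± 0.12, adjusted p = 1.18e-13) and fell to D42 (-0.84 ± 0.12, adjusted p = 1.16e-07). Without the D42 libraries numbered 3 the last step was -0.66, adjusted p = 2.63e-09. Between E17 and D42 the difference was -0.11 ± 0.12, adjusted p = 0.38.

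COL4A2 encodes the alpha 2 chain, the partner of alpha 1. It spans 138919708 to 139061817 on chromosome 1, next to COL4A1, and the annotated spans overlap by 901 bases. The strand setting of the counting is not given in the sources used here, so how reads in those bases were divided between both genes is not known. COL4A2 ran from 1246 to 1756 CPM with a median of 1488 at E17 (18 libraries). At D1, COL4A2 ran from 848 to 1571 CPM with a median of 1254. The stages overlapped, although in crossbred all 6 D1 libraries were below all 6 E17 libraries. COL4A2 then ran from 1723 to 2661 CPM with a median of 2327 at D21. COL4A2 at D42 ran from 357 to 1873 CPM with a median of 1221. All 18 D21 libraries lay above all 18 D1 libraries, and within each breed all 6 D42 libraries lay below all 6 D21 libraries. Mean COL4A2 (± SD, n = 6) at E17 was 1501 ± 98.0 CPM in Cornish, 1494 ± 139 in crossbred and 1500.4 ± 165 in White Plymouth Rock. COL4A2 means at D1 were 1294 ± 109.7 CPM in Cornish, 1125 ± 148 in crossbred and 1298 ± 208 in White Plymouth Rock. Mean COL4A2 at D21 was 2371 ± 205 CPM in Cornish, 2339 ± 202 in crossbred and 2226 ± 361 in White Plymouth Rock, and at D42 1350.05 ± 449.9 CPM in Cornish, 1349 ± 579.7 in crossbred and 1168 ± 413 in White Plymouth Rock. The 3 D21 groups again had the highest means, White Plymouth Rock D21 did not overlap the next group in the order, Cornish E17, and from there down each group overlapped the next. COL4A2 fell from E17 to D1 (-0.28 ± 0.12, adjusted p = 0.0304), a call lost without the D1 libraries numbered 1 (-0.24, adjusted p = 0.0788). It rose to D21 (0.90 ± 0.12, adjusted p = 5.87e-10) and fell to D42 (-0.85 ± 0.12, adjusted p = 9.69e-08; -0.66, adjusted p = 1.01e-09, without the D42 libraries numbered 3). The difference between E17 and D42 was -0.22 ± 0.12, adjusted p = 0.0785, but 5 of 16 alternative settings called it.

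COL4A5 encodes the alpha 5 chain, found in collagen IV trimers with alpha 3 and alpha 4 or with alpha 6; human mutations cause Alport syndrome of kidney, ear and eye. It spans 13859833 to 13939361 on chromosome 4, 412 bases from COL4A6. COL4A5 ran from 447 to 1080.3 CPM with a median of 685 at E17 (18 libraries). At D1, COL4A5 ran from 459 to 1219 CPM with a median of 795. Both stages covered much the same range. COL4A5 then ran from 130.2 to 252 CPM with a median of 183 at D21. COL4A5 at D42 ran from 22.7 to 125 CPM with a median of 67.0. All 18 D21 libraries lay below all 18 D1 libraries, and all 18 D42 libraries below all 18 D21 libraries. Mean COL4A5 (± SD, n = 6) at E17 was 653 ± 227 CPM in Cornish, 741 ± 177 in crossbred and 685 ± 196 in White Plymouth Rock. COL4A5 means at D1 were 857 ± 174 CPM in Cornish, 854 ± 179 in crossbred and 775 ± 257 in White Plymouth Rock. Mean COL4A5 at D21 was 202 ± 39.8 CPM in Cornish, 172 ± 42.2 in crossbred and 175 ± 35.3 in White Plymouth Rock, and at D42 75.8 ± 33.0 CPM in Cornish, 62.9 ± 22.5 in crossbred and 55.0 ± 21.6 in White Plymouth Rock. The order of the 12 groups followed stage: 3 at D1, 3 at E17, 3 at D21 and 3 at D42, with overlap inside each pair of neighbours except at the change from E17 to D21 and from D21 to D42. The highest group mean was 15.6 times the lowest. COL4A5 at D1 against E17 did not pass the test (0.26 ± 0.14, adjusted p = 0.096). It fell from D1 to D21 (-2.18 ± 0.15, adjusted p = 8.49e-21) and from D21 to D42 (-1.51 ± 0.15, adjusted p = 3.06e-12; -1.35, adjusted p = 9.13e-12, without the D42 libraries numbered 3). Stage held 92.9% of the variance of its log2 CPM, against 60.0% for COL4A1 and 52.7% for COL4A2.

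The other collagen IV chains were set beside these. COL4A6, whose alpha 6 chain assembles with alpha 5, was at 501 ± 142 CPM at E17, 894 ± 236 at D1, 192 ± 31.7 at D21 and 83.5 ± 27.3 at D42 (SD, n = 18). It rose from E17 to D1 (0.83 ± 0.13, adjusted p = 6.49e-08), then fell to D21 (-2.21 ± 0.14, adjusted p = 6.22e-23) and to D42 (-1.22 ± 0.13, adjusted p = 1.09e-10). The later falls have the direction of those of COL4A5, but the ratio of COL4A6 to COL4A5 counts, a measure chosen after its values were seen, differed by stage, at 0.723 at E17, 1.07 at D1, 1.06 at D21 and 1.33 at D42. COL4A3 and COL4A4, named here to complete the family, were scarce, at 6.87 ± 2.14 and 9.63 ± 4.36 CPM at D1 and 1.47 ± 0.622 and 1.04 ± 0.484 CPM at D21. COL4A3 (-2.21 ± 0.20, adjusted p = 3.93e-15) and COL4A4 (adjusted p = 1.89e-17) fell from D1 to D21 as COL4A6 did; from E17 to D1, 2 of these 3 chains rose and from D21 to D42 COL4A6 alone was called. Markers of Schwann cells fell from D1 to D21, 7 of 8 with a median of -2.43, where 36.8% of all genes were lower and 36.4% higher. The summed Schwann markers were at 356 to 1056 CPM at D1 and 104 to 188 CPM at D21, and their part in the collagen IV levels was not tested. Endothelial markers moved up with COL4A1 and COL4A2 at that step, 7 of 10 higher and 0 lower with a median of 0.40. Their sum was 629.99 to 1176 CPM at D1 and 926 to 1468 CPM at D21, and their part was not tested either.

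LAMA2 encodes the laminin alpha 2 chain of the muscle fibre basement membrane. It spans 57779932 to 58116457 on chromosome 3. LAMA2 ran from 626 to 1024 CPM with a median of 780.2 at E17 (18 libraries). At D1, LAMA2 ran from 350.1 to 891 CPM with a median of 592. The ranges overlapped in every breed. LAMA2 then ran from 564 to 989 CPM with a median of 729.7 at D21. LAMA2 at D42 ran from 108 to 672 CPM with a median of 437. D21 overlapped D1, and D42 extended well below D21; within White Plymouth Rock all 6 D42 libraries lay below all 6 D21 libraries. Mean LAMA2 (± SD, n = 6) at E17 was 802 ± 103 CPM in Cornish, 833 ± 85.3 in crossbred and 755 ± 159 in White Plymouth Rock. LAMA2 means at D1 were 593 ± 130.04 CPM in Cornish, 622 ± 188 in crossbred and 575 ± 88.9 in White Plymouth Rock. Mean LAMA2 at D21 was 773 ± 165 CPM in Cornish, 764 ± 152 in crossbred and 676 ± 67.8 in White Plymouth Rock, and at D42 449 ± 152 CPM in Cornish, 438 ± 194 in crossbred and 375 ± 105 in White Plymouth Rock. The 3 D42 groups were the lowest of the 12, and every group overlapped its neighbour in the order. LAMA2 fell from E17 to D1 (-0.42 ± 0.13, adjusted p = 0.00345) and rose to D21 (0.30 ± 0.13, adjusted p = 0.0319), a call lost without the D1 libraries numbered 1 (0.25, adjusted p = 0.093). It fell to D42 (-0.81 ± 0.13, adjusted p = 2.11e-06; -0.64, adjusted p = 2.09e-06, without the D42 libraries numbered 3). At D42 it was at 0.527 of the E17 level (-0.93 ± 0.13, adjusted p = 3.33e-09).

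LAMA4 encodes the alpha 4 chain, known from vessel walls and from embryonic muscle fibres in mammals. It spans 65400812 to 65497195 on chromosome 3. LAMA4 ran from 706 to 932 CPM with a median of 792 at E17 (18 libraries). At D1, LAMA4 ran from 95.7 to 393 CPM with a median of 275. All 18 D1 libraries lay below all 18 E17 libraries. LAMA4 then ran from 237 to 456 CPM with a median of 338 at D21. LAMA4 at D42 ran from 95.5 to 472 CPM with a median of 297. The 3 later stages overlapped one another and lay, each of their libraries, below E17. Mean LAMA4 (± SD, n = 6) at E17 was 827 ± 70.0 CPM in Cornish, 801 ± 43.7 in crossbred and 767 ± 86.8 in White Plymouth Rock. LAMA4 means at D1 were 279 ± 46.1 CPM in Cornish, 284 ± 73.1 in crossbred and 255 ± 81.4 in White Plymouth Rock. Mean LAMA4 at D21 was 369 ± 60.6 CPM in Cornish, 345 ± 57.0 in crossbred and 308 ± 52.1 in White Plymouth Rock, and at D42 322 ± 116 CPM in Cornish, 275 ± 108 in crossbred and 255 ± 96.1 in White Plymouth Rock. The 3 E17 groups headed the order with a gap below them, and the other 9 groups each overlapped the next. LAMA4 fell from E17 to D1 (-1.55 ± 0.13, adjusted p = 3.22e-16) and rose slightly to D21 (0.32 ± 0.13, adjusted p = 0.0256); that rise was lost without the D1 libraries numbered 1 (0.25, adjusted p = 0.073). The step to D42 did not pass the test (-0.27 ± 0.13, adjusted p = 0.112; -0.087, adjusted p = 0.584, without the D42 libraries numbered 3). LAMA4 in White Plymouth Rock D1 library 1 was 95.7 CPM, below the other 5 of its group.

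LAMB1 encodes the beta 1 chain, shared by many laminins. It spans 15067914 to 15108889 on chromosome 1. LAMB1 ran from 1889.8 to 2569.5 CPM with a median of 2173 at E17 (18 libraries). At D1, LAMB1 ran from 444 to 1418 CPM with a median of 1237. All 18 D1 libraries lay below all 18 E17 libraries. LAMB1 then ran from 679 to 1252 CPM with a median of 914 at D21. LAMB1 at D42 ran from 178 to 805 CPM with a median of 541. D21 overlapped D1 and D42 overlapped D21, with D42 the lowest stage. Mean LAMB1 (± SD, n = 6) at E17 was 2271 ± 155 CPM in Cornish, 2204 ± 93.6 in crossbred and 2114 ± 247 in White Plymouth Rock. LAMB1 means at D1 were 1165 ± 179 CPM in Cornish, 1191 ± 299 in crossbred and 1077 ± 329 in White Plymouth Rock. Mean LAMB1 at D21 was 1014 ± 111 CPM in Cornish, 919 ± 193 in crossbred and 845 ± 101 in White Plymouth Rock, and at D42 603 ± 189 CPM in Cornish, 544 ± 216 in crossbred and 506 ± 159.8 in White Plymouth Rock. The order of the 12 groups followed age, from E17 through D1 and D21 to D42, with no overlap between E17 and D1 and overlap at each other change. LAMB1 fell at each step, from E17 to D1 (-0.94 ± 0.13, adjusted p = 9.4e-10), to D21 (-0.31 ± 0.12, adjusted p = 0.0231) and to D42 (-0.75 ± 0.12, adjusted p = 4e-06; -0.57, adjusted p = 9.86e-06, without the D42 libraries numbered 3). Among the 9, COL4A5 and LAMB1 had the largest net falls, to 0.0925 (adjusted p = 6.91e-30) and 0.250 (adjusted p = 2.45e-22) of the E17 level. The D1 group means include crossbred library 1 at 612 CPM and White Plymouth Rock library 1 at 444 CPM. Without the D1 libraries numbered 1 the step to D21 was -0.41, adjusted p = 0.00131. However, 3 of 16 alternative settings lost the call of that step. These left out all libraries numbered 2 (adjusted p = 0.0686), 4 (adjusted p = 0.0561) or 6 (adjusted p = 0.0935).

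LAMC1 encodes the gamma 1 chain, the partner of beta 1 in most laminins. It spans 7469621 to 7521103 on chromosome 8. LAMC1 ran from 1468 to 2097 CPM with a median of 1705 at E17 (18 libraries). At D1, LAMC1 ran from 652 to 1123 CPM with a median of 965. All 18 D1 libraries lay below all 18 E17 libraries. LAMC1 then ran from 962 to 1474 CPM with a median of 1247 at D21. LAMC1 at D42 ran from 308 to 1266 CPM with a median of 764. D21 stood between D1 and E17 and overlapped D1, although within Cornish all 6 D21 libraries lay above all 6 D1 libraries; D42 overlapped D21. Mean LAMC1 (± SD, n = 6) at E17 was 1764 ± 129.8 CPM in Cornish, 1743 ± 107 in crossbred and 1683 ± 249 in White Plymouth Rock. LAMC1 means at D1 were 872 ± 131 CPM in Cornish, 970.5 ± 143 in crossbred and 925 ± 113 in White Plymouth Rock. Mean LAMC1 at D21 was 1375 ± 114 CPM in Cornish, 1211 ± 146 in crossbred and 1179 ± 146 in White Plymouth Rock, and at D42 877 ± 291 CPM in Cornish, 814 ± 283 in crossbred and 701 ± 239.8 in White Plymouth Rock. The 3 E17 groups had the highest means, followed by the 3 D21 groups, and each group in the order overlapped the next. LAMC1 fell from E17 to D1 (-0.91 ± 0.10, adjusted p = 1.19e-11), rose to D21 (0.44 ± 0.10, adjusted p = 0.000142) and fell to D42 (-0.66 ± 0.10, adjusted p = 1.64e-06; -0.49, adjusted p = 1.04e-06, without the D42 libraries numbered 3). At D42 it was at 0.459 of the E17 level (-1.12 ± 0.11, adjusted p = 3.24e-15). Of the 9, LAMC1 had the group means most like the mean course of the 9 (Pearson r = 0.985 over 12 group means, a description, since LAMC1 is part of that mean).

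NID1 encodes nidogen 1, which binds the laminin gamma 1 chain and collagen IV. It spans 37527469 to 37564861 on chromosome 3. NID1 ran from 1077 to 1859 CPM with a median of 1371 at E17 (18 libraries). At D1, NID1 ran from 554 to 1614 CPM with a median of 975. The D1 libraries spread widely and overlapped E17 in every breed. NID1 then ran from 1096 to 1679.9 CPM with a median of 1401 at D21. NID1 at D42 ran from 297 to 1921 CPM with a median of 1070.5. No stage was separated from another, and D42 had the widest range. Mean NID1 (± SD, n = 6) at E17 was 1299.6 ± 197 CPM in Cornish, 1540.4 ± 196 in crossbred and 1337 ± 323 in White Plymouth Rock. NID1 means at D1 were 949 ± 344 CPM in Cornish, 1025 ± 322 in crossbred and 1077 ± 337 in White Plymouth Rock. Mean NID1 at D21 was 1406 ± 212 CPM in Cornish, 1402 ± 194 in crossbred and 1356 ± 139 in White Plymouth Rock, and at D42 1217 ± 434 CPM in Cornish, 1226 ± 612 in crossbred and 950.04 ± 366 in White Plymouth Rock. Every group overlapped its neighbour in the order of means, from crossbred E17 at the top to Cornish D1 at the bottom. NID1 fell from E17 to D1 (-0.45 ± 0.15, adjusted p = 0.0058) and rose to D21 (0.45 ± 0.15, adjusted p = 0.00584); the step to D42 did not pass the test (-0.30 ± 0.15, adjusted p = 0.11; -0.11, adjusted p = 0.516, without the D42 libraries numbered 3). The difference between E17 and D42 did not pass either (-0.31 ± 0.15, adjusted p = 0.0549), but 9 of 16 alternative settings called it, among them the one without the D1 libraries numbered 1 (-0.31, adjusted p = 0.0472). Spread within groups held 74.5% of the variance of its log2 CPM and stage 21.2%, the lowest stage share of the 9.

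NID2 encodes nidogen 2, the paralogue of nidogen 1. It spans 57861576 to 57873552 on chromosome 5. NID2 ran from 627 to 1014 CPM with a median of 867 at E17 (18 libraries). At D1, NID2 ran from 154 to 521 CPM with a median of 303. All 18 D1 libraries lay below all 18 E17 libraries. NID2 then ran from 268 to 450.00 CPM with a median of 362 at D21. NID2 at D42 ran from 89.1 to 513 CPM with a median of 262. The 3 later stages overlapped and stayed below E17. Mean NID2 (± SD, n = 6) at E17 was 899.7 ± 99.3 CPM in Cornish, 855 ± 70.8 in crossbred and 801 ± 107 in White Plymouth Rock. NID2 means at D1 were 282 ± 50.1 CPM in Cornish, 276 ± 69.2 in crossbred and 340.5 ± 109 in White Plymouth Rock. Mean NID2 at D21 was 380.3 ± 61.3 CPM in Cornish, 371 ± 55.4 in crossbred and 349 ± 54.2 in White Plymouth Rock, and at D42 287 ± 134 CPM in Cornish, 289 ± 137 in crossbred and 279.6 ± 130.2 in White Plymouth Rock. The 3 E17 groups headed the order with a gap below them, as for LAMA4, and the other 9 each overlapped the next. NID2 fell from E17 to D1 (-1.51 ± 0.15, adjusted p = 1.89e-14). The step to D21 did not pass the test (0.30 ± 0.14, adjusted p = 0.0552), but 4 of 16 alternative settings called it, among them the one without the D42 libraries numbered 3 (0.26, adjusted p = 0.0326). The step to D42 did (-0.36 ± 0.14, adjusted p = 0.0427), but 8 of 16 alternative settings lost that call, among them the one without the D42 libraries numbered 3 (-0.17, adjusted p = 0.271). Between E17 and D42 it fell to 0.335 of the E17 level (-1.58 ± 0.15, adjusted p = 1.74e-15).

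Pairs of related chains were compared within each library, where scaling between libraries cancels. LAMA4 fell relative to LAMA2 across hatch. Their ratio rose from D21 to D42, a step at which LAMA2 fell (-0.81) and LAMA4 did not pass the test (-0.27). Within Cornish alone and within crossbred alone that rise of the ratio was not called. NID2 fell relative to NID1 across hatch, and LAMC1 gained on LAMB1 between D1 and D21. COL4A2 and COL4A1 stayed closest to each other, with small shifts. How reads in the 901 bases shared by their annotated spans were divided is not known. Counts are not corrected for length, so only the change of a ratio is read. The 12 steps, 3 for each of 4 pairs, were tested with 2-sided permutation tests of 100000 resamples, adjusted over the 12; a raw p of 2e-05, the smallest these can give, adjusts to 4.8e-05.

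The log2 ratio of LAMA4 to LAMA2 ran from -0.32 to 0.30 with a median of -0.0020 at E17 and from -2.21 to -0.40 with a median of -1.07 at D1. The 18 D1 ratios all lay below the 18 at E17, a change of -1.16 ± 0.11, adjusted p = 4.8e-05 (permutation test). At D21 the ratio ran from -1.74 to -0.31 with a median of -1.04, a step of 0.033 ± 0.14, adjusted p = 0.89 (permutation test), and at D42 from -1.33 to -0.050 with a median of -0.58. The D42 ratios were higher than those at D21 with overlap (0.54 ± 0.12, adjusted p = 0.00012, permutation test). The log2 ratio of NID2 to NID1 ran from -1.27 to -0.16 with a median of -0.65 at E17 and from -2.28 to -0.97 with a median of -1.74 at D1, lower with some overlap (-1.05 ± 0.12, adjusted p = 4.8e-05, permutation test). Its later steps did not pass (-0.18 ± 0.11, adjusted p = 0.16, and -0.065 ± 0.095, adjusted p = 0.6, permutation tests).

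The log2 ratio of LAMC1 to LAMB1 ran from -0.55 to -0.21 with a median of -0.33 at E17 and from -0.74 to 0.79 with a median of -0.38 at D1, with no call between them (0.072 ± 0.082, adjusted p = 0.58, permutation test). It ran from 0.15 to 0.68 with a median of 0.44 at D21, higher than at D1 (0.72 ± 0.086, adjusted p = 4.8e-05, permutation test). The highest D1 ratio belonged to White Plymouth Rock library 1, and without the D1 libraries numbered 1 the rise was 0.81. The step to D42 did not pass (0.096 ± 0.050, adjusted p = 0.11, permutation test). The log2 ratio of COL4A2 to COL4A1 rose by 0.17 ± 0.027, adjusted p = 4.8e-05, from E17 to D1 and changed by -0.28 ± 0.026, adjusted p = 4.8e-05, from D1 to D21, where all 18 D21 ratios lay below all 18 at D1 (permutation tests). From D21 to D42 the change was -0.0018 ± 0.021, adjusted p = 0.94 (permutation test). At D42 the SD within groups of that log2 ratio was 0.056, where the log2 levels of COL4A2 and COL4A1 had SDs of 0.72 and 0.71: libraries low in one were low in the other by nearly the same factor. For LAMA4 to LAMA2 at D42 the SD of the log2 ratio was 0.36, beside 0.67 and 0.69 for the levels.

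**Figure D4:**
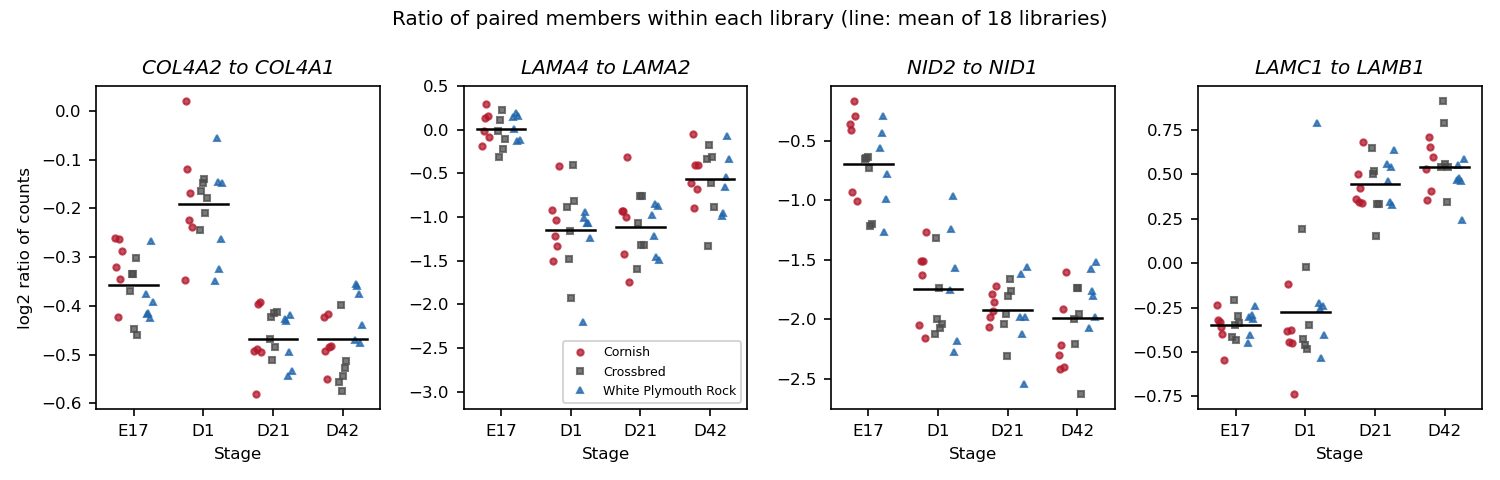
Log2 ratio of counts of 4 pairs of members within each library (vertical axis) by stage, with colour and shape for breed and a black line at the mean of 18 libraries. The ratio of LAMA4 to LAMA2 drops from E17 to D1 with no overlap, and the mean of LAMC1 to LAMB1 is higher at D21 and D42 than before, with White Plymouth Rock D1 library 1 apart from its group at 0.79.

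Breed comparisons asked whether the purebreds differed and where the crossbred lay between them. None of the 9 genes differed between breeds at any stage in edgeR's test of the 18 libraries of a stage. The estimates were smaller than the largest stage changes. At D1 and at D42 some reached the size of smaller called steps, such as -0.28 for COL4A2 from E17 to D1. The lowest estimate at D1 was -0.30, between crossbred and White Plymouth Rock. Between Cornish and White Plymouth Rock the members' log2 differences ran from -0.081 to 0.16 at E17 and from -0.27 to 0.14 at D1. They ran from 0.051 to 0.26 at D21 and from 0.033 to 0.46 at D42. All 9 were above 0, that is higher in Cornish, at D21 and at D42, with medians of 0.19 and 0.26. The medians of all genes were -0.0092 and 0.0085. Crossbred was above White Plymouth Rock for 8 of the 9 at D21 (median 0.075) and for 9 at D42 (0.20). Crossbred was above Cornish for 1 of the 9 at D21 (median -0.035) and for 3 at D42 (-0.041). The 9 levels vary together across libraries, so their shared sign is not 9 separate observations.

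The count of members called was 0 in each of 16 comparisons, and breed differences were rare among all genes too. At E17, 3.72% of all genes tested were called between the purebreds, 0.0171% between crossbred and Cornish, 0.00853% between crossbred and White Plymouth Rock and 0% between crossbred and the mean of both purebreds. At D1, the shares were 0% between the purebreds, 0% between crossbred and Cornish, 0% between crossbred and White Plymouth Rock and 0% between crossbred and the mean of both purebreds. At D21, 2.93% of all genes tested were called between the purebreds, 0.122% between crossbred and Cornish, 0% between crossbred and White Plymouth Rock and 0% between crossbred and the mean of both purebreds. Among the D42 libraries, 0.0347% of all genes tested were called between the purebreds, 0% between crossbred and Cornish, 0% between crossbred and White Plymouth Rock and 0% between crossbred and the mean of both purebreds. DESeq2 also called 0 members in all 16. At an unadjusted p under 0.05 edgeR had 2 members, LAMB1 and LAMC1, at D21 between the purebreds, where 18.2% of all genes tested were under it, and 0 in the other 15 comparisons. At E17, 19.8% of all genes were under it between the purebreds and 0 members. LAMB1 was 866 to 1143 CPM in Cornish and 719 to 976 CPM in White Plymouth Rock (0.26 ± 0.12, adjusted p = 0.274). LAMC1 was 1159 to 1474 CPM and 962 to 1358 CPM (0.22 ± 0.10, adjusted p = 0.263). The ranges of both genes overlapped between the breeds.

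The intervals set what these comparisons could show. Over the 9 members the 95% intervals of the purebred difference ran from -0.53 to 0.37 (log2) at E17, from -0.74 to 0.61 at D1, from -0.19 to 0.55 at D21 and from -0.78 to 1.15 at D42. The largest fold difference inside any of them was 1.44 at E17, 1.67 at D1, 1.47 at D21 and 2.22 at D42. Against the mean of both purebreds, crossbred levels differed by -0.0020 to 0.23 at E17, -0.22 to 0.12 at D1, -0.12 to 0.085 at D21 and -0.066 to 0.18 at D42. NID1 held the upper end at E17, at 1540.4 ± 196 CPM in crossbred (SD, n = 6); against Cornish alone its log2 difference was 0.26 ± 0.14, adjusted p = 0.518.

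**Figure D5:**
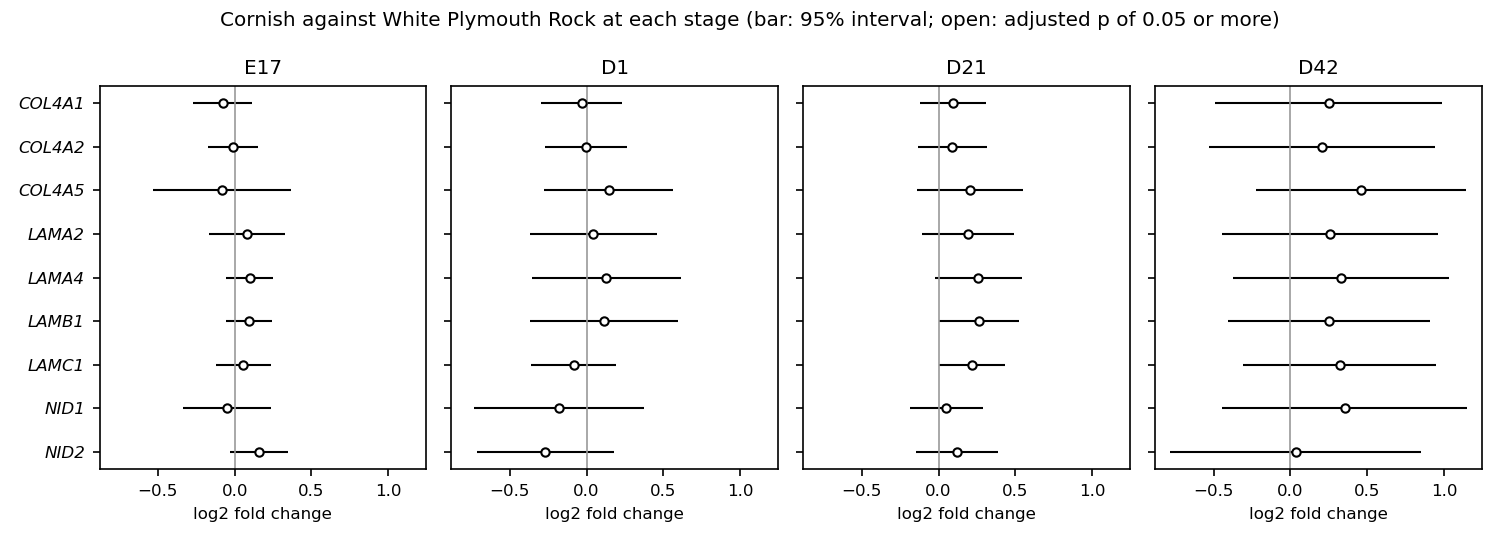
Log2 difference of Cornish minus White Plymouth Rock for each gene (horizontal axis) with 95% intervals, 1 panel per stage; open points did not pass the adjusted threshold of 0.05. No point is filled; the D42 intervals are the widest, and at D21 and D42 all 9 points lie right of 0.

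A test of whether breed differences changed with stage, in the fit of all 72 libraries, called 0 of the 9 genes and 7 of 11932 genes, or 0.0587%. The members' unadjusted p values in this edgeR test ran from 0.672 to 0.996, none under 0.05. Here too the spread of each gene was shared by all stages, so the wide spread at D42 entered these p values. DESeq2's likelihood ratio test called 0 members and 85 of 11932 genes. Without the D42 libraries numbered 3, edgeR called 0 members and 22 of 11935 genes. Breed held between 0.0543% (NID2) and 1.47% (LAMA4) of the variance of log2 CPM. The authors' deposited tables, which list breed differences at a p up to 0.05, hold 3 of the 9. They list 17.6% of all genes for the purebreds at D21, with 2 members, and 11.8% for crossbred against Cornish at E17, with 1 member. The authors' deposited table has LAMB1 at a log2 fold change of -0.26 (p = 0.012, unadjusted) and LAMC1 at -0.22 (p = 0.0286) at D21 for the purebreds. For NID1 at E17 between crossbred and Cornish, the authors' deposited table has -0.25 (p = 0.02). The signs in those deposited tables are opposite to first minus second as their comparisons are named.

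The rest of the basement membrane was read from lists of genes. For the list counts here and in the paragraphs below, the shares of all genes called were as follows. From E17 to D1, 37.3% were higher and 35.6% lower. To D21 these shares were 36.4% and 36.8%, and to D42 they were 17.1% and 15.6%. Of 8 other laminin chains, 4 rose and 4 fell from E17 to D1 (median -0.13). LAMB2, the beta 2 chain of the neuromuscular junction and mature muscle, rose from 300.4 ± 88.6 to 598 ± 244 CPM (SD, n = 18; 0.99 ± 0.17, adjusted p = 8.35e-07) while LAMB1 fell, and then fell to 359 ± 71.8 CPM at D21 (-0.73 ± 0.17, adjusted p = 0.000142). LAMA5, an alpha chain of vessels and epithelia, fell from E17 to D1 (-0.98 ± 0.12, adjusted p = 8.49e-11), rose to D21 (0.28 ± 0.12, adjusted p = 0.0287) and fell to D42 (-0.36 ± 0.12, adjusted p = 0.015). From D1 to D21, 2 of the 8 rose and 3 fell (median 0.27), and from D21 to D42, 0 rose and 2 fell (median 0.043).

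Of 18 other basement membrane components, 4 rose and 11 fell from E17 to D1 (median -0.95), 7 rose and 7 fell to D21 (0.050), and 2 rose and 7 fell to D42 (-0.25). COL18A1, the collagen that carries endostatin, fell across hatch from 1072 ± 135 to 221 ± 72.1 CPM (-2.28 ± 0.17, adjusted p = 2.29e-19) and rose to 689 ± 119 CPM at D21 (1.64 ± 0.16, adjusted p = 5.18e-14). SPARC, a collagen IV binding glycoprotein, rose at the same step (1.03 ± 0.12, adjusted p = 4.87e-11) and fell to D42 (-0.51 ± 0.12, adjusted p = 0.000941). The Fraser complex gene FREM2 fell from D1 to D21 (-3.66 ± 0.21, adjusted p = 2.29e-24), as did PAPLN, which encodes papilin (-2.11 ± 0.16, adjusted p = 1e-18). TINAGL1, a tubulointerstitial nephritis antigen relative, rose across hatch (1.24 ± 0.12, adjusted p = 9.75e-15).

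Receptors changed in both directions, as all genes did at each step. Of 16, 3 rose and 7 fell from E17 to D1 (median -0.19), 6 rose and 8 fell to D21 (-0.18), and 1 rose and 4 fell to D42 (-0.12). DAG1, dystroglycan, which binds the alpha 2 laminin, fell across hatch (-0.88 ± 0.065, adjusted p = 5.2e-19), as did ITGA6, a laminin-binding integrin chain (-0.98 ± 0.14, adjusted p = 7.54e-09). SGCA, a sarcoglycan of the dystrophin complex, rose across hatch (1.25 ± 0.10, adjusted p = 8.19e-17) and fell to D21 (-0.92 ± 0.10, adjusted p = 4.99e-12). ITGA7, the main laminin-binding integrin chain of mature fibres, rose from D1 to D21 (1.89 ± 0.17, adjusted p = 4.13e-16) and again to D42 (0.45 ± 0.16, adjusted p = 0.0251), a step at which LAMA2, LAMB1 and LAMC1 fell. In the 3 D42 libraries numbered 3, where those laminins were lowest, the summed receptors were highest of their groups, 3351 to 5926 CPM against 2469.8 to 3644 in the other 15; the part of those libraries in the rise was not tested. ITGA1, a collagen-binding chain, rose from D1 to D21 (0.79 ± 0.11, adjusted p = 3.22e-09).

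Of 14 genes that fold, modify, export or crosslink collagen IV and other collagens, 1 rose and 12 fell from E17 to D1 (median -0.78), 9 rose and 1 fell to D21 (0.31), and 2 rose and 3 fell to D42 (-0.070). PXDN, peroxidasin, which crosslinks collagen IV, fell across hatch (-1.72 ± 0.13, adjusted p = 3.64e-19) and to D42 (-0.47 ± 0.12, adjusted p = 0.00212), and LOXL2, a lysyl oxidase of collagen IV, rose to D21 (1.33 ± 0.16, adjusted p = 2.66e-11). MIA3, needed to load collagen into transport vesicles, was the 1 that rose across hatch (0.87 ± 0.11, adjusted p = 4.34e-10). Of 12 genes that put the laminin-binding sugar on dystroglycan, 4 rose and 3 fell from E17 to D1 (median 0.080), 6 rose and 5 fell to D21 (0.063), and 6 rose and 1 fell to D42 (0.22). The summed level of this list too was highest of its group in each of the 3 D42 libraries numbered 3, at 415 to 588 CPM against 296 to 419 in the other 15, and the part of those libraries in the 6 rises was not tested.

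Markers of the cells that could hold these transcripts moved as well, and their part in the members' changes was not tested. From E17 to D1, when 8 members fell, 10 of 10 interstitial collagens fell (median -1.81) and 10 of 10 fibroblast markers fell (-1.10). Summed fibroblast markers were 3669.9 to 6109 CPM at E17 and 1124 to 4005 CPM at D1. Endothelial markers split at that step, 2 higher and 3 lower of 10 (-0.037), and 7 of 8 muscle fibre markers rose (0.83). From D1 to D21, 7 of 8 pericyte and smooth muscle markers rose (1.14), a list that includes the fibre protein DES, as did 7 of 10 fibroblast markers with 1 lower (0.61) and 6 of 6 leukocyte markers (2.76). From D21 to D42, when 7 members fell, 4 of 10 endothelial markers fell and 0 rose (-0.27), led by CDH5, the cadherin of endothelial junctions (-0.48 ± 0.13, adjusted p = 0.00242). At the same step 1 of 10 fibroblast markers fell (-0.26), 1 of 10 interstitial collagens fell (-0.27) and 1 of 8 muscle fibre markers rose (-0.041). The members' median at that step was -0.75. Satellite cell markers had 2 higher and 3 lower of 8 from E17 to D1, 2 higher and 6 lower to D21 and 0 higher and 3 lower to D42, and adipocyte markers 2, 5 and 3 higher of 6 with 0 lower. Red cell markers had 4, 2 and 5 lower of 6, with 0, 0 and 1 higher, and skin markers 4, 3 and 1 lower of 6 with 0, 1 and 1 higher.

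Of 9273 named genes outside the 9 whose mean reached 5 CPM, the 6 whose 12 group means most resembled the mean course of the 9 were CDC20 (r = 0.969), CPE (r = 0.968), MYCL (r = 0.958), DHCR7 (r = 0.955), ARHGAP42 (r = 0.952) and GNB4 (r = 0.949). These are Pearson correlations over 12 group means that share 4 stages, given as a description.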

How the data were processed

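Breast muscle RNA of 72 chicken libraries was sequenced in 12 groups of 6. The authors deposited estimated counts, whole numbers per gene and library; cutadapt 4.4, HISAT2 2.2.1, StringTie and the GRCg7b build stand in the submitters' processing notes, with no order, annotation or strand setting given there. Deposited beside them were the authors' breed comparisons, as log2 fold changes and p-values, which list only genes at a p up to 0.05.

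From the counts, edgeR 4.0.16 (R 4.3.3) was run with TMM factors, its filter on low counts and the quasi-likelihood test. Stage contrasts and the breed-by-stage test used all 72 libraries and 12 group means; breed contrasts used the 18 libraries of a stage. P values were adjusted by Benjamini-Hochberg over all genes tested. Fold changes carry ± the standard error and levels ± the SD. Log2 CPM used a prior count of 2. Ratios of counts were tested with permutation tests in scipy 1.17.1. Alternatives were DESeq2 1.42.0, other scalings and filters, a replicate block and libraries left out. The edgeR fits were also run on simulated counts in which each gene had the same spread in all libraries of a fit. The stages of these data differed in spread, and no result given here rests on the simulated counts. Named genes of other lists were the called genes with up to 2 of the largest rises and falls per step and a mean of at least 5 CPM. The members and lists were chosen with earlier results of these data known. Gene positions are from RefSeq's GRCg7b annotation. No sequence or transcript length was used here.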

Additional observations from a re-analysis of the deposited data

Results flagged for a closer look

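In 7 of 108 combinations of a gene and a group of 6, 1 library lay so far from the other 5 that its gap to the nearest passed Dixon's 95% limit. Chance alone would give about 1 in 20 groups, and the genes vary together, so these are not 7 separate observations. No explanation was tested.

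COL4A5, the alpha 5 chain of collagen IV, had 3 of them, each a single high library. These were Cornish E17 library 3, at 1080.3 CPM where the nearest other was 679 and the group median 588; White Plymouth Rock E17 library 4, at 1057 CPM where the nearest other was 699 and the group median 647; and crossbred D21 library 4, at 252 CPM where the nearest other was 176 and the group median 162. The other 8 genes had no such high library.

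The other 4 were single low libraries at D1, all numbered 1. For LAMB1 they were crossbred D1 library 1, at 612 CPM where the nearest other was 1141 and the group median 1297, and White Plymouth Rock D1 library 1, at 444 CPM where the nearest other was 1039 and the group median 1182. For LAMC1 it was crossbred D1 library 1, at 699 CPM where the nearest other was 974 and the group median 998. For LAMA4 it was White Plymouth Rock D1 library 1, at 95.7 CPM where the nearest other was 265 and the group median 275. Crossbred D1 library 1 is also the shallowest of the 72. The D42 libraries numbered 3, lowest for every member in every breed, did not pass this limit in any group.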

How the results depend on the processing

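Of the 576 alternative values of single members in the stage comparisons, none reversed a called direction; 522 kept the side of the threshold, 30 lost a call and 24 gained one. Scaling by library totals alone left 4 members called from D1 to D21 in place of 8, 2 higher and 2 lower. It called 8953 of 11932 genes at that step. It moved the median of all genes there to -0.32, and LAMA2 and LAMA4 to 0.0072 and 0.0095. The same scaling moved the median of all genes to -0.15 from E17 to D1 and -0.41 from E17 to D42. With 6 libraries a stage, exact permutation tests lost the call of the log2 ratio of COL4A2 to COL4A1 from E17 to D1 in Cornish (0.138, adjusted p = 0.073) and of LAMA4 to LAMA2 from D21 to D42 in Cornish (0.549, adjusted p = 0.082) and crossbred (0.530, adjusted p = 0.091); fewer libraries were compared there. Leaving out each library number in turn gave 7 to 9 members called from E17 to D1, 6 to 9 to D21, 6 to 9 to D42 and 6 to 8 over the whole interval. Of 11926 to 11931 genes tested, these fits called 8264 to 8628, 8322 to 8629, 3148 to 3710 and 9395 to 9535. DESeq2 called 8, 9, 7 and 7 members, and 8803, 8795, 4105 and 9741 of 11932 genes. Without the D42 libraries numbered 3 the member counts were 8, 9, 6 and 6, where 8933, 8942, 3607 and 9666 of 11935 genes were called. Without the shallow crossbred D1 library 1 they were 7, 7, 7 and 6, where 8674, 8726, 3963 and 9715 of 11934 genes were called. Without the D1 libraries numbered 1, a setting chosen after seeing the data, they were 7, 6, 7 and 7. That setting called 8614, 8697, 4086 and 9743 of 11931 genes. The calls lost most often were NID2 from D21 to D42 (8 of 16 settings), LAMA2 (7) and LAMA4 (5) from D1 to D21 and COL4A2 from E17 to D1 (5); the cause was not tested. No member was called between breeds in 400 alternative runs. With the replicate number as a block, 8, 8, 9 and 8 members were called in those stage comparisons and 0 in the breed-by-stage test. Of 11932 genes it called 8731, 8765, 3987 and 9729, and 9 in the breed-by-stage test. The block added NID1 (-0.36, adjusted p = 0.0404) and LAMA4 (-0.31, adjusted p = 0.0463) from D21 to D42. It also added COL4A2 (-0.27, adjusted p = 0.0272) and NID1 (-0.35, adjusted p = 0.0211) from E17 to D42. Libraries of different breeds were also compared by each gene's deviation in log2 CPM from its group mean. For same-numbered libraries these deviations correlated above 0.1 in 2 of 18 pairs at E17, 4 at D1, 0 at D21 and 9 at D42. The mean correlation at D42 was 0.16, against -0.030 for other pairs. Not every pair passed and the labels give the number no meaning, so the numbers were not taken to pair samples. That rule does not show that same-numbered libraries were independent at D42. The D42 breed intervals given above came from fits without a block for the number. In the stage comparisons the block gave each number 1 effect shared by all 4 stages. It could therefore not take up a pattern by number found at D42 alone. Depth did not limit the members' counts, and the spread between libraries at D42 set the widest intervals.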
